A study of Mus musculus with 172 samples.

Results

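The genes described here are those for the factors that start protein synthesis and for the enzymes that load tRNAs with amino acids. They were chosen by symbol, as every listed gene whose name begins with Eif and a digit, together with the aminoacyl-tRNA synthetases named by an amino acid letter and ars (or ars2), Farsa, Farsb and Eprs. Of 14896 genes listed in cortex and 14107 in liver, 89 met this rule, 52 of them initiation factor genes and 37 tRNA synthetase genes, and all 89 were listed in both tissues under both conditions. Symbols that begin with Eif also include kinases, inhibitors and a carrier of these factors, which are counted here with the initiation factor genes. Eif4e1b, an oocyte relative of the cap-binding protein, is not listed.

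RNA was sequenced from cerebral cortex and liver of male mice aged 11 to 14 weeks, taken at zeitgeber time 6, that is 6 h after lights on. Mice were either kept awake for the preceding 6 h (SD) or left undisturbed (Ctr). Each library, called a pool here, held RNA pooled from several mice of 1 genotype, except for BXD79, BXD85 and BXD101, which had fewer mice, so that a library of these lines may rest on a single mouse. The 39 pools of each tissue and condition were 33 BXD/RwwJ recombinant inbred lines, each a fixed mosaic of the C57BL/6J and DBA/2J genomes, 2 pools of each of these parental strains, and 1 pool of each of their reciprocal F1 crosses, here called BD and DB after the labels. The labels of a few BXD/RwwJ lines give the number of another line in this set with a letter added. Such lines may be closely related, but each was counted as a separate pool in the counts and fits. No alternative fit left these lines out or averaged them, so their effect on the tests is not known. A further 4 BXD/TyJ pools were kept apart. Among their labels is a line number given both with and without a letter, and the pools so named may be closely related. The change in a pool is its log2 CPM (the gene's reads scaled to the size of the library, on a log2 scale) in SD minus that in Ctr, so that 1 unit is a doubling. A gene is said to rise or fall where the paired limma test over the 39 pools gave an adjusted p under 0.05, with adjustment over all genes of the tissue. The pools differ in genotype, so the SE of a change covers differences between lines as well as between mice.

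Libraries held 18995492 to 28998853 reads in the listed genes in cortex and 4681101 to 8269401 in liver. These sums leave out reads outside the listed genes, so they are not the full sequencing depth. A few pools stood apart from the rest. Over all genes, the change in BXD90 cortex deviated from the middle of the pools by a median of 0.24, against 0.08 in the middle pool, and it was the most deviant pool for 30 of the 89 genes. In liver the same values were 0.44 for BXD70 and 0.24 for the DB F1, against 0.15, and these were the most deviant pools for 41 and 17 of the 89 genes. Where leaving out BXD70 and BXD90, or these and the DB F1, changed the call of a member named below, its value without them is given. All 4 hepatocyte markers were listed in liver and none in cortex, and all 4 neuronal markers were listed in cortex. In cortex, 2 of the 4 neuronal markers (Syt1 and Slc17a7), 2 of the 3 microglial markers and 1 of the 3 oligodendrocyte markers (Mog) fell, and 2 of the 3 astrocyte markers (Gfap and Slc1a3) rose. In liver 1 of the 4 neuronal markers was also listed, Syt1, at a mean of 6.04 log2 CPM in Ctr, and it fell by 0.82 (adjusted p = 3.19e-22). The 3 B cell markers fell in liver, from a summed median of 10.3 CPM (4.97 to 19.9) in Ctr to 4.16 CPM (2.15 to 10.6) in SD. In liver Alb, the mRNA of the main plasma protein, averaged 9.08 log2 CPM in Ctr, below the much longer Apob at 10.87. The part of these shifts and of this order of levels in the changes below was not tested, and in whole tissue fewer cells of a type and less RNA per cell cannot be told apart.

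Translation begins when eIF2, loaded with GTP and the initiator tRNA, joins the small ribosomal subunit together with eIF1, eIF1A, eIF3 and eIF5, and when the cap-binding complex eIF4F brings in the mRNA. Cells tune this step at the cap, where the eIF4E-binding proteins keep eIF4E from its scaffold eIF4G until mTOR phosphorylates them, and at eIF2, whose alpha subunit is phosphorylated by 4 stress kinases that slow general initiation and favour translation of the transcription factor ATF4. The synthetases each join an amino acid to its tRNA, mostly with separate nuclear genes for the cytosol and for mitochondria, and several cytosolic synthetase genes are classical targets of ATF4.

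The promoters of the members were searched for the letters TGATGNAA on both strands, which is the response element for ATF4 with C/EBP proteins, and for CACGTG, the E-box. A promoter here is the stretch from 250 bases before to 50 bases after a start site in RefSeq (GRCm38.p6), and 69 of the 89 genes had one. TGATGNAA stood in 5 of 13 cytosolic synthetase promoters (38.5%), in 0 of 14 mitochondrial ones and in 1 of 42 initiation factor promoters (Eif2s3x), against 4.51% of 27025 genes with a promoter. CACGTG stood in 10 of the 42 initiation factor promoters (23.8%) and in 5 of the 27 synthetase promoters (18.5%), against 8.09% of all genes. Neither motif overlapped the other in these promoters. The 5 synthetase promoters with TGATGNAA follow, 5′ to 3′ on the gene's strand, with the matched letters (or their reverse complement TTNCATCA) in capitals. They are shown because the changes of these 5 genes are set beside each other further on. Positions count from the start site, with bases before it negative.
Aars (chr8:111033592-111033891, + strand, matches beginning at -112 and 10): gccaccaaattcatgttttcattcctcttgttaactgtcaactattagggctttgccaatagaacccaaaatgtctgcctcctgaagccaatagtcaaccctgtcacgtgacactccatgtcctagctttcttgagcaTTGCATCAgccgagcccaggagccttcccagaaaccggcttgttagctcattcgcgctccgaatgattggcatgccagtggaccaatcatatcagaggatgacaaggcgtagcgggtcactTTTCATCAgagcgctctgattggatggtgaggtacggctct
Gars (chr6:55037751-55038050, + strand, match at -30): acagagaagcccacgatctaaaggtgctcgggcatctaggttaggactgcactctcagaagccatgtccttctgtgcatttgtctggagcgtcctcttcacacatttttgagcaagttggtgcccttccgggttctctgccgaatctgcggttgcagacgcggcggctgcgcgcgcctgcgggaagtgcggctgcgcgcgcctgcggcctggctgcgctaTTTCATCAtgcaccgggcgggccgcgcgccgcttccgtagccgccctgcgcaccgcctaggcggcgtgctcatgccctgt
Iars (chr13:49681880-49682179, + strand, match at 8): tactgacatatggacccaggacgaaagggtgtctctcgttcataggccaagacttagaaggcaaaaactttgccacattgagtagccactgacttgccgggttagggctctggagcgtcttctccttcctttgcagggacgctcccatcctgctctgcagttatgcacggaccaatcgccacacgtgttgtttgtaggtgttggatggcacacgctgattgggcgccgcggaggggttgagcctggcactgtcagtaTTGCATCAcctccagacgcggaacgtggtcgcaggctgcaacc
Tars (chr15:11399609-11399908, - strand, match at -15): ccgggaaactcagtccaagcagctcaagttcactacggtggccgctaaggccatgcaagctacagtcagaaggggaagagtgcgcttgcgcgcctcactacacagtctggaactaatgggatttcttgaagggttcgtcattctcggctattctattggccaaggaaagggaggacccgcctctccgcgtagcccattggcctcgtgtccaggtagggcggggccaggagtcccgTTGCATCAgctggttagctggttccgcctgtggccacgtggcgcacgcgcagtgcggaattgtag
Yars (chr4:129189653-129189952, + strand, match at 4): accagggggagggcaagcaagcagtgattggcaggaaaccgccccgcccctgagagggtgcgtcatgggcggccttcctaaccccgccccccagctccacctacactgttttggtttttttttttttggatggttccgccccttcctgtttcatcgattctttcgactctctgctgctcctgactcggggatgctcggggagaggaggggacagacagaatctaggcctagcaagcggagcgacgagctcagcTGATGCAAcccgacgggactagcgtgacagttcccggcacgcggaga
A match is a string of letters and not a measured binding site.

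In cortex, initiation factor and synthetase genes moved in both directions. Of the 52 initiation factor genes 21 rose, 20 fell and 11 did not pass the test, and of the 37 synthetase genes 14 rose, 15 fell and 8 did not pass. Among all genes tested in cortex, 36.6% rose and 39.6% fell, so these counts are near the background. The median change was -0.02 over the initiation factor genes and -0.003 over the synthetase genes, against -0.01 over all genes, and the median size of a change without regard to sign was 0.09 over the 89 genes against 0.13 over all genes.

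In liver, of the initiation factor genes 16 rose, 7 fell and 29 did not pass, and of the synthetase genes 4 rose, 18 fell and 15 did not pass, against a background in which 26% rose and 27.9% fell. Synthetase genes thus fell at 48.6% and initiation factor genes at 13.5%. The median change of the synthetase genes was -0.05 and that of the initiation factor genes 0.02, beside -0.002 over all genes. Pool by pool, the median change of the 37 synthetase genes was above 0 in 5 of 39 pools, ranging from -0.20 in the DB F1 to 0.09 in BXD45, whereas that of the initiation factor genes was above 0 in 26 of 39, from -0.18 in the DB F1 to 0.25 in BXD70. Without BXD70 and BXD90 the liver counts were 14 up and 7 down for initiation factors and 5 up and 19 down for synthetases, and without the DB F1 as well they were 19 and 7, and 5 and 17.

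**Figure D1:**
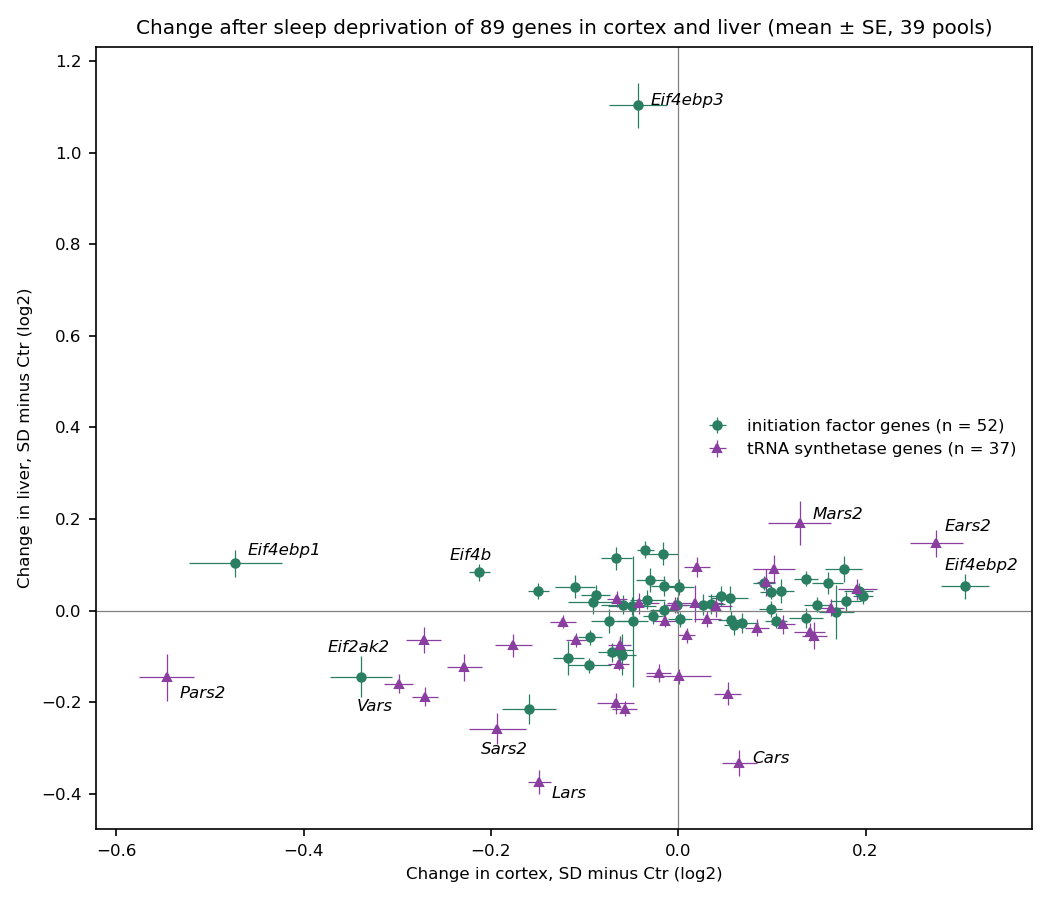
Mean change after SD in cortex (horizontal axis, log2) against that in liver (vertical axis, log2) for the 52 initiation factor genes (circles) and 37 tRNA synthetase genes (triangles), with SE bars over 39 pools. Eif4ebp3 sits alone at 1.10 in liver and -0.04 in cortex, Eif4ebp1 and Pars2 lie farthest left, and the lowest points in liver are the synthetase genes Lars and Cars.

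The eIF4E-binding proteins hold the cap-binding protein eIF4E away from its scaffold, and so are inhibitors grouped with the initiation factor genes by symbol. They included the largest rise and the largest fall of that group in cortex and its largest rise in liver. Each of the 3 genes had its own pattern. Eif4ebp1 (mm9 chr8:28370799-28386128) fell in cortex: its lowest, median and highest levels were 1.27, 1.88 and 2.30 log2 CPM in Ctr and 0.65, 1.36 and 2.12 in SD. The ranges overlapped, but the level was lower in SD in 38 of 39 pools, a change of -0.47 ± 0.05 (SE; adjusted p = 8.3e-12), so that it fell by 27.9%. It is a low gene in cortex, with 73.9 reads on average, against 434 in liver.

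Eif4ebp2 (mm9 chr10:60895245-60915417), the main brain form of these proteins, rose in cortex. Its levels were 3.64, 4.48 and 4.62 log2 CPM (lowest, median, highest) in Ctr and 4.48, 4.77 and 4.98 in SD, higher in 38 of 39 pools, with a change of 0.31 ± 0.03 (adjusted p = 7.12e-15) or 23.7% more. The lowest Ctr level and the largest rise, 1.05, belonged to BXD90. In liver Eif4ebp2 changed by 0.05 ± 0.03 (adjusted p = 0.0986), with one pool, BXD70, at -0.70. Without BXD70 and BXD90 the liver change was 0.07 (adjusted p = 0.00468), which passes the test.

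Eif4ebp3 rose in liver in all 39 pools and was the largest change of any member. Ctr levels were 4.42, 5.00 and 5.76 log2 CPM and SD levels 5.65, 6.17 and 6.65, and the lowest SD level lay within the upper end of the Ctr range. The change was 1.10 ± 0.05 (adjusted p = 5.12e-23), a 2.15-fold rise, with pools between 0.36 (BXD89) and 1.62 (BXD49), and it ranked 119 of 14107 liver genes by size. In cortex the same gene changed by -0.04 ± 0.03 (adjusted p = 0.2), up in 17 of 39 pools. Of the 100-base windows of Eif4ebp3 transcripts in Gencode vM1, 62.8% also belong to its neighbour Ankhd1 on the same strand. The counting rule drops reads that fall in both genes, but whether the RefSeq models used for counting overlap in this way was not checked. Ankhd1 itself changed by -0.01 ± 0.06 in liver (adjusted p = 0.883).

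In liver Eif4ebp1 rose by 0.10 ± 0.03 (adjusted p = 0.00328; up in 28 of 39 pools), with BXD70 highest at 0.72. Eif4enif1, which carries eIF4E into the nucleus, rose in cortex by 0.06 ± 0.01 (adjusted p = 7.48e-06) and changed by -0.03 ± 0.02 in liver (adjusted p = 0.219). On the scale of log2 CPM per kilobase of exon, mean Ctr levels in cortex were 1.91 for Eif4ebp1, 3.61 for Eif4ebp2 and 3.64 for Eif4ebp3, with SDs between pools of 0.25, 0.17 and 0.14. Eif4ebp1 was thus lower than Eif4ebp2 in cortex. The level of Eif4ebp3 per kilobase counts all its exons, also the stretch shared with Ankhd1, whose reads may have been dropped. It may thus be too low by an amount that is not known, and it is not ranked against the other genes. In liver the levels per kilobase were 6.00, 6.07 and 5.50 in Ctr and 6.10, 6.12 and 6.60 in SD, with the same limit for Eif4ebp3.

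**Figure D2:**
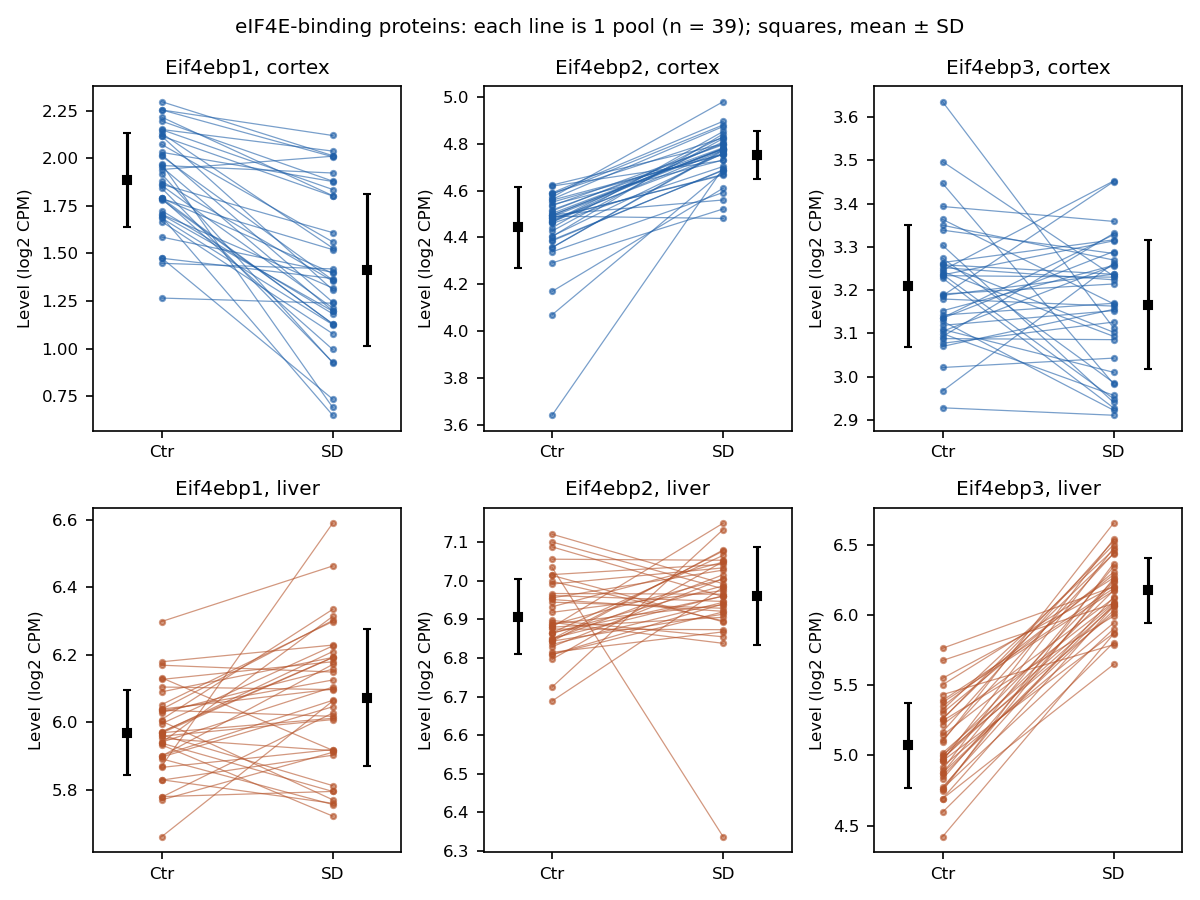
Levels (log2 CPM, vertical axes, each with its own scale) of Eif4ebp1, Eif4ebp2 and Eif4ebp3 in Ctr and SD in cortex (top) and liver (bottom), with 1 line for each of 39 pools and squares for the mean ± SD. Lines slope down for Eif4ebp1 and up for Eif4ebp2 in 38 of 39 pools each in cortex, and up for Eif4ebp3 in all 39 pools in liver.

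The next list held 11 genes, for the cap-binding complex eIF4F, its helpers and relatives of its subunits (Eif4e2, Eif4e3, Eif4a3 and Eif4g2). Its counts and medians thus do not describe eIF4F alone. Of the 11 genes, 6 rose and 4 fell in cortex (54.5% and 36.4%). In liver 3 rose and 1 fell (27.3% and 9.1%). Among all genes 36.6% rose and 39.6% fell in cortex, and 26% rose and 27.9% fell in liver. The median change over the 11 genes was 0.10 in cortex and 0.02 in liver. In cortex the pool-wise median of the 11 genes was above 0 in 36 of 39 pools. Eif4e, the cap-binding protein, rose in cortex by 0.10 ± 0.01 (adjusted p = 7.29e-10; 35 of 39 pools), as did its relatives Eif4e2, by 0.14 ± 0.01, and Eif4e3, by 0.17 ± 0.02. In liver only Eif4e2 of these 3 passed the test, at 0.07 ± 0.02 (adjusted p = 0.000366), and Eif4e and Eif4e3 changed by 0.0033 ± 0.02 and -0.0024 ± 0.06. The end of Eif4e3 overlaps the start of Foxp1 on the same strand, with 0% of its transcript windows found in another gene, and Foxp1 changed by -0.10 ± 0.02 in cortex and 0.21 ± 0.04 in liver.

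Of the scaffolds, Eif4g2 (DAP5), a form that lacks the eIF4E-binding part, rose in cortex in all 39 pools. Its levels were 9.30, 9.43 and 9.61 log2 CPM in Ctr and 9.49, 9.64 and 9.82 in SD, which overlapped, with a change of 0.20 ± 0.01 (adjusted p = 1.83e-21) or 14.6% more. Eif4g1, the main scaffold, rose by 0.10 ± 0.01 and Eif4g3 fell by 0.06 on the log2 scale (adjusted p = 1.31e-10 and 8.06e-05). In liver Eif4g1 and Eif4g2 changed by -0.02 ± 0.02 and 0.03 ± 0.02 without passing the test, and Eif4g3 fell by 0.09 (adjusted p = 0.0171), with BXD70 at -0.96. Eif4g2 passed in liver once BXD70, BXD90 and the DB F1 were left out (0.04, adjusted p = 0.0195).

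The helicases of the complex moved apart. In cortex Eif4a1 (mm9 chr11:69480438-69485925) rose by 0.18 ± 0.02 (adjusted p = 1.38e-13; 37 of 39 pools; adjusted p = 0.0753 without the pairing of pools) and Eif4a2 fell by 0.04 (adjusted p = 0.000723; 33 of 39 pools). In liver Eif4a2 rose, from 7.51, 7.75 and 7.92 log2 CPM to 7.69, 7.86 and 8.31 (lowest, median, highest), by 0.13 ± 0.02 (adjusted p = 3.59e-08; 36 of 39 pools), and Eif4a1 changed by 0.02 ± 0.02. Per kilobase of exon, Ctr levels in cortex were 6.47 for Eif4a2 and 3.20 for Eif4a1 (log2), and in liver 5.33 and 5.57. The gap in cortex exceeded the spread between pools (SD 0.41 for Eif4a1). In liver the order per kilobase was the opposite, but that order rests on the exon lengths used. Before scaling by length, liver Ctr means were 7.74 log2 CPM for Eif4a2 and 7.69 for Eif4a1, with SDs between pools of 0.10 and 0.14.

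Eif4b, which stimulates the helicase, fell in cortex in all 39 pools. Ctr levels were 7.71, 7.85 and 7.94 log2 CPM and SD levels 7.47, 7.62 and 7.73, so that the ranges met only at their ends. The change was -0.21 ± 0.01 (adjusted p = 8.2e-22), so that it fell by 13.7%, and every pool lay between -0.39 and -0.06. In liver the same gene rose by 0.08 ± 0.02 (adjusted p = 0.000122; 29 of 39 pools). Its relative Eif4h fell in cortex by 0.03 (adjusted p = 0.0218) and changed by -0.01 ± 0.02 in liver.

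Among the eIF2 genes, the alpha subunit Eif2s1, the target of the stress kinases, rose in cortex in all 39 pools. Its levels were 4.88, 5.04 and 5.27 log2 CPM in Ctr and 5.08, 5.23 and 5.42 in SD, overlapping, with a change of 0.19 ± 0.02 (adjusted p = 2.36e-15) or 14.3% more. The beta subunit Eif2s2 rose by 0.07 ± 0.02, whereas both gamma subunit genes fell, the X-linked Eif2s3x by 0.09 and the Y-linked Eif2s3y also by 0.09. In liver Eif2s1 rose by 0.04 ± 0.02 (adjusted p = 0.0434), a call lost without BXD70 and BXD90 (0.03, adjusted p = 0.0937) but not with the DB F1 left out as well, and Eif2s3y fell. Eif2s3y liver levels were 6.84, 7.05 and 7.30 log2 CPM in Ctr and 6.70, 6.93 and 7.17 in SD, lower in 37 of 39 pools, with a change of -0.12 ± 0.02 (adjusted p = 4.48e-08).

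The exchange factor eIF2B, which reloads eIF2 with GTP, has subunits encoded by Eif2b1 to Eif2b5, and these did not move together. Eif2b3, the gamma subunit, fell in both tissues. In liver it went from 5.33, 5.67 and 5.84 log2 CPM in Ctr to 5.12, 5.44 and 5.80 in SD, a change of -0.21 ± 0.03 (adjusted p = 2.98e-07; lower in 34 of 39 pools), and in cortex it changed by -0.16 ± 0.03 (adjusted p = 2.78e-06). Eif2b2 and Eif2b5 rose in cortex, by 0.05 ± 0.02 and 0.06 ± 0.01, and Eif2b1 and Eif2b4 in liver, by 0.05 ± 0.02 and 0.12 ± 0.02. Eif2a, an initiation factor apart from the eIF2 subunits, fell in both tissues, by 0.09 in cortex and 0.06 in liver. Eif2d, which can deliver tRNA to the ribosome without eIF2, fell in both tissues. Its liver levels were 6.77, 6.92 and 7.17 log2 CPM in Ctr and 6.59, 6.83 and 7.19 in SD, and the change was -0.09 ± 0.02 (adjusted p = 0.000146), with the highest pool, BXD70, at 0.34. In cortex Eif2d changed by -0.07 ± 0.02 (adjusted p = 5.7e-05). Of the 11 eIF2 and exchange factor genes, 4 rose and 5 fell in cortex and 3 rose and 4 fell in liver. These are 36.4% and 45.5% in cortex, beside 36.6% and 39.6% of all genes. In liver they are 27.3% and 36.4%, beside 26% and 27.9%.

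Of the 4 kinases of eIF2 alpha, 1 rose and 3 fell in cortex, where 36.6% of all genes rose and 39.6% fell. Eif2ak2 (PKR), the kinase for double-stranded RNA, fell most: its levels were 2.68, 3.08 and 3.52 log2 CPM in Ctr and 2.20, 2.76 and 3.09 in SD, lower in 36 of 39 pools, with a change of -0.34 ± 0.03 (adjusted p = 1.05e-12), so that it fell by 20.9%. Eif2ak4 (GCN2), which senses uncharged tRNA, fell by 0.12 and Eif2ak3 (PERK), of the endoplasmic reticulum, by 0.06 (adjusted p = 1.75e-08 and 0.000524). Eif2ak1 (HRI), the heme-regulated kinase, rose by 0.09 ± 0.01 (adjusted p = 2.59e-09). The same kinase rose in liver, by 0.06 ± 0.01 (adjusted p = 0.000742; 30 of 39 pools). Eif2ak2 and Eif2ak4 also fell in liver, by 0.14 and 0.10 (adjusted p = 0.00526 and 0.016), and Eif2ak3 changed by -0.10 ± 0.04 (adjusted p = 0.0637). In BXD70 liver these 3 kinases changed by -1.08, -0.88 and -1.24, the lowest values of any pool. Without BXD70 and BXD90 the count in liver was again 1 up and 2 down. With all 39 pools, 26% of all genes rose in liver and 27.9% fell.

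The start-site factors, counted together with the eIF1A-domain protein Eif1ad, split in cortex and mostly rose in liver. Eif1 and its paralogue Eif1b, which help the ribosome to reject wrong start codons, rose in cortex by 0.16 ± 0.02 and 0.18 ± 0.02 (adjusted p = 5.08e-12 and 5.1e-11), and Eif1a by 0.14 ± 0.02. Eif5, which makes eIF2 hydrolyse its GTP once the start codon is found, fell in cortex in 38 of 39 pools, by 0.15 (adjusted p = 2.22e-16), and Eif1ad fell by 0.07. Eif1ax changed by -0.05 ± 0.03 in cortex (adjusted p = 0.0744) and passed without BXD70 and BXD90 (-0.07, adjusted p = 0.00286), which gave 3 up and 3 down. In liver 4 of the 6 rose and 0 fell, and 2 rose without BXD70 and BXD90. The shares over all genes were 36.6% up and 39.6% down in cortex and 26% up and 27.9% down in liver. Eif1ad, an eIF1A-domain protein, went from 5.88, 6.10 and 6.28 to 5.92, 6.20 and 6.55 log2 CPM in liver, a rise of 0.11 ± 0.03 (adjusted p = 0.000129; 33 of 39 pools). Eif1b rose by 0.09 ± 0.03, Eif1 by 0.06 ± 0.02 and Eif5 by 0.04 ± 0.02. The liver calls of Eif1 (adjusted p = 0.0797) and Eif5 (adjusted p = 0.0648) were lost without BXD70 and BXD90, and both passed with the DB F1 left out as well. Of the Eif1 transcript windows, 14.4% occur in other genes, so reads from these stretches cannot be assigned to Eif1 alone.

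The 12 listed subunits of eIF3, the large scaffold on the small ribosomal subunit, changed little in liver, by -0.02 to 0.07, with 2 up and 0 down. In cortex 3 rose and 3 fell. Beside these counts, 36.6% of all genes rose and 39.6% fell in cortex, and 26% rose and 27.9% fell in liver. Eif3b and Eif3a rose, by 0.15 ± 0.01 and 0.11 ± 0.01 (adjusted p = 5.18e-14 and 1.98e-09), and Eif3f and Eif3e fell, by 0.11 and 0.09 (adjusted p = 1.41e-05 and 1.72e-06). Eif3c, another core subunit, changed by 0.0019 ± 0.01 (adjusted p = 0.9). In liver Eif3a changed by 0.04 ± 0.03 (adjusted p = 0.17) and was higher in 31 of 39 pools. It passed without BXD70 and BXD90, at 0.07 (adjusted p = 4.03e-05), whereas Eif3h, at 0.05 ± 0.02, lost its call (adjusted p = 0.101) and regained it with the DB F1 left out as well. In cortex Eif3g, at 0.03 ± 0.01 (adjusted p = 0.0877), passed without BXD70 and BXD90 (0.03, adjusted p = 0.0205), and the counts of eIF3 genes were then 4 up and 2 down. Of the late factors, Eif5b, which joins the large subunit, rose in both tissues, by 0.10 ± 0.01 in cortex and 0.04 ± 0.02 in liver (adjusted p = 0.028). The liver call of Eif5b was lost in the 33 BXD/RwwJ lines alone (0.03, adjusted p = 0.151), with parental pools averaged (adjusted p = 0.0582) and without BXD79, BXD85 and BXD101 (adjusted p = 0.0828). Eif6, which keeps the subunits apart, fell in cortex by 0.07 and changed by -0.02 ± 0.03 in liver.

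Of the 20 cytosolic synthetases, 9 rose, 8 fell and 3 were not called in cortex, and in liver 0 rose, 10 fell and 10 did not pass. The all-gene shares were 36.6% up and 39.6% down in cortex and 26% up and 27.9% down in liver. Without BXD70 and BXD90, Wars passed in liver as a rise (0.08, adjusted p = 0.0231). The cortex call of Rars, for arginine, at 0.03 ± 0.01 (adjusted p = 0.0429), was lost without these and the DB F1 (adjusted p = 0.0641). The median change over the 20 genes was -0.003 in cortex and -0.05 in liver.

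In cortex the largest rises were those of Tars, Iars and Eprs, for threonine, isoleucine, and glutamate with proline. Tars levels were 4.85, 4.98 and 5.15 log2 CPM in Ctr and 5.00, 5.16 and 5.33 in SD, higher in 38 of 39 pools, by 0.16 ± 0.01 (adjusted p = 2.71e-14). Iars rose by 0.15 ± 0.01 and Eprs by 0.14 ± 0.02, and the beta subunit for phenylalanine, Farsb, by 0.11 ± 0.01 against 0.04 ± 0.02 for the alpha subunit Farsa. Vars, for valine, fell in all 39 pools: Ctr levels were 5.70, 5.85 and 5.99 log2 CPM and SD levels 5.39, 5.52 and 5.85, with a change of -0.30 ± 0.02 (adjusted p = 6.29e-22), so that it fell by 18.7%. Lars, for leucine, also fell in all 39 pools, by 0.15 (adjusted p = 3.06e-15).

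In liver Lars fell furthest, again in all 39 pools. Its levels were 7.21, 7.42 and 7.63 log2 CPM in Ctr and 6.57, 7.04 and 7.34 in SD, which overlapped between 7.21 and 7.34, and the change was -0.37 ± 0.03 (adjusted p = 1.07e-16), so that it fell by 22.8%. Cars, for cysteine, went from 6.93, 7.11 and 7.57 to 6.48, 6.79 and 7.12 log2 CPM, lower in 37 of 39 pools, by -0.33 ± 0.03 (adjusted p = 6.77e-14). Mars fell by 0.21, Vars by 0.16, Hars by 0.14 and Gars by 0.12. Each of these was lower in at least 35 of 39 pools.

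The 5 genes whose promoters are printed above moved in different directions in cortex. Tars and Iars rose, as given, and Aars fell by 0.11, Gars by 0.06 and Yars by 0.06 (adjusted p = 6.98e-13, 1.01e-06 and 1.21e-05). Their liver changes were 0.01 ± 0.02 for Tars, -0.05 ± 0.03 for Iars, -0.06 ± 0.02 for Aars, -0.12 ± 0.01 for Gars and -0.07 ± 0.02 for Yars, of which the last 3 passed the test. Atf4 itself rose in cortex by 0.25 and fell in liver by 0.17 (adjusted p = 4.22e-20 and 3.54e-09). Its classical target Asns, asparagine synthetase, fell in cortex by 0.16 (adjusted p = 6.64e-15) and did not pass in liver (adjusted p = 0.0721). Of other genes listed around Atf4, Ddit3 rose by 0.32 in cortex and 0.30 in liver, and Chac1 by 0.48 in liver. Sesn2 fell in cortex by 0.11, and Trib3 passed in neither tissue. The 5 genes were not compared with synthetase genes whose promoters lack the letters. The part of ATF4 in these changes was not tested.

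**Figure D3:**
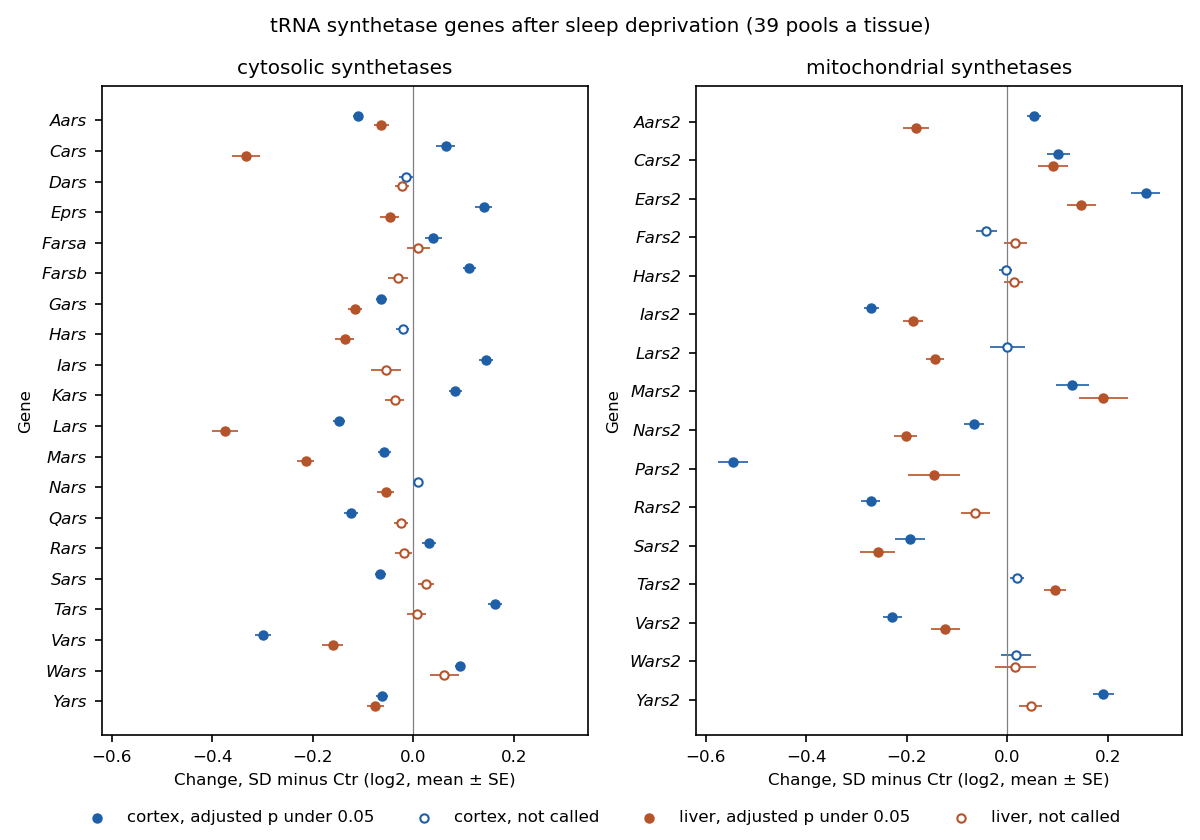
Change after SD (horizontal axis, log2, mean ± SE over 39 pools) of cytosolic (left) and mitochondrial (right) synthetase genes, with 1 mitochondrial gene not drawn, in cortex (blue) and liver (orange), filled where the adjusted p was under 0.05. In the left panel the blue points spread to both sides of 0 and the filled orange points all lie below it, with Lars and Cars lowest, and in the right panel Pars2 in cortex is lowest.

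Of the 17 mitochondrial synthetases, 5 rose and 7 fell in cortex and 4 rose and 8 fell in liver. These are 29.4% and 41.2% in cortex, beside 36.6% and 39.6% of all genes. In liver they are 23.5% and 47.1%, beside 26% and 27.9%. Pars2 (mm9 chr4:106323674-106327887), for mitochondrial proline, had the largest change of any member in cortex. Its levels were 2.78, 3.08 and 3.47 log2 CPM in Ctr and 2.32, 2.56 and 2.90 in SD, and it was lower in all 39 pools, by 0.13 (BXD89) to 0.91 (BXD44). The mean change was -0.55 ± 0.03 (adjusted p = 1.66e-21), so that it fell by 31.5%, which ranked 903 of 14896 cortex genes by size. In liver it fell by 0.15 (adjusted p = 0.0162; lower in 26 of 39 pools).

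Rars2 and Iars2, for arginine and isoleucine, also fell in cortex in all 39 pools. Rars2 went from 4.03, 4.26 and 4.45 to 3.74, 3.93 and 4.32 log2 CPM, by -0.27 ± 0.02 (adjusted p = 2.09e-17), and Iars2 changed by -0.27 ± 0.01. In liver Rars2 changed by -0.06 ± 0.03 (adjusted p = 0.061) and passed without BXD70 and BXD90 (-0.07, adjusted p = 0.0439). Vars2 fell by 0.23 and Sars2 by 0.19. Against these, Ears2, for glutamate, rose from 1.97, 2.28 and 2.53 to 2.28, 2.56 and 2.81 log2 CPM, higher in 38 of 39 pools, by 0.28 ± 0.03 (adjusted p = 4.88e-12), and Yars2, for tyrosine, from 3.43, 3.83 and 4.01 to 3.85, 3.99 and 4.29, by 0.19 ± 0.02 (adjusted p = 2.37e-11).

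In liver Sars2, for serine, fell furthest of the mitochondrial set, from 5.42, 5.74 and 6.07 to 5.12, 5.52 and 5.85 log2 CPM (lower in 33 of 39 pools), by -0.26 ± 0.03 (adjusted p = 1.52e-08). Nars2 fell by 0.20, Iars2 by 0.19 and Aars2 by 0.18. Mars2, Ears2 and Tars2 rose. Mars2, for methionine, went from 2.92, 3.33 and 3.66 to 3.05, 3.53 and 3.95 log2 CPM, by 0.19 ± 0.05 (adjusted p = 0.000777), on 71.1 reads on average. Ears2 went from 5.07, 5.43 and 5.64 to 5.33, 5.55 and 5.94, by 0.15 ± 0.03 (adjusted p = 3.47e-05), and Tars2 from 6.55, 6.74 and 6.96 to 6.54, 6.81 and 7.31, by 0.10 ± 0.02 (adjusted p = 0.000167). The Ctr and SD ranges overlapped for each of these 4 genes. The rises of Ears2, Mars2 and Cars2 passed in both tissues.

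**Figure D4:**
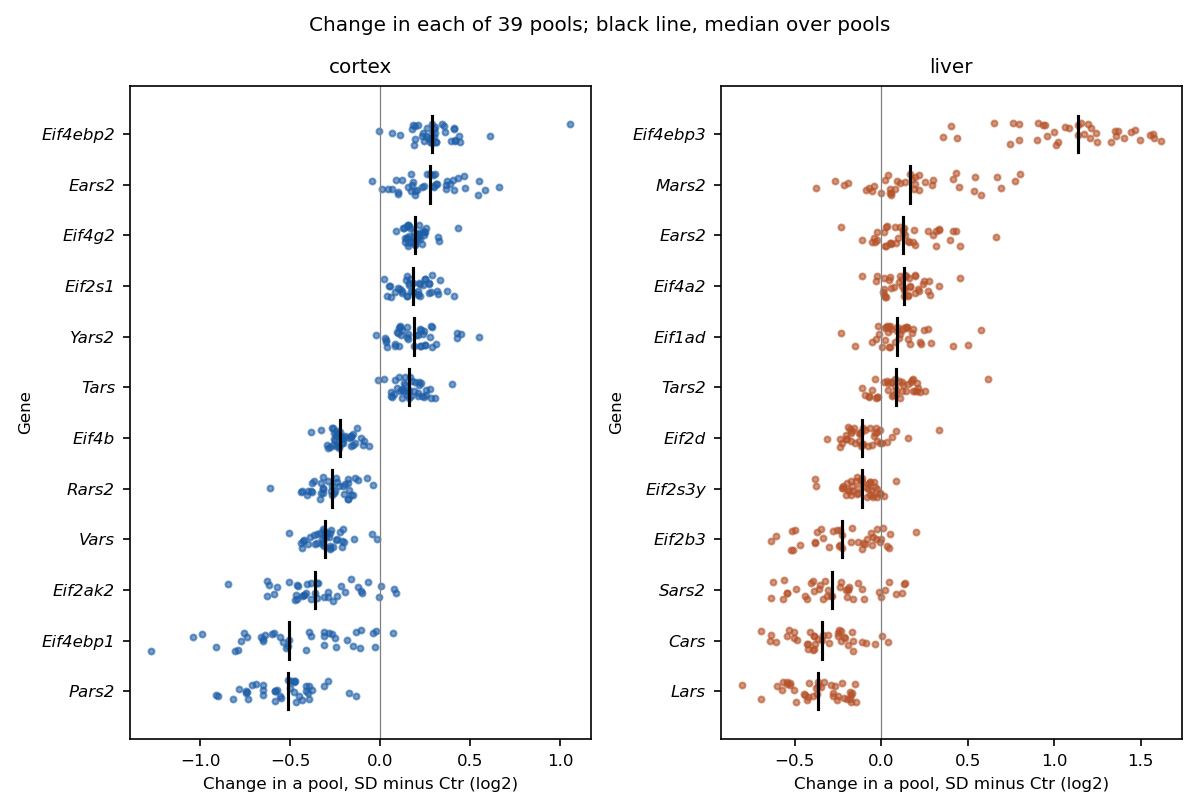
Change in each of 39 pools (SD minus Ctr, log2, horizontal axis) in cortex (left) and liver (right) for the 3 largest rises and the 3 largest falls of each group that had 1 direction in 30 or more pools, with the median over pools as a black line. Points of Eif4g2, Eif2s1, Eif4b, Rars2, Vars and Pars2 in cortex and of Eif4ebp3 and Lars in liver stay on 1 side of 0.

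The change was compared between tissues within each pool. It differed between liver and cortex for 31 of 52 initiation factor genes and 26 of 37 synthetase genes, against 57.6% of the 12695 genes listed in both tissues. The largest differences (liver minus cortex) were those of Eif4ebp3, 1.15 ± 0.07, and Eif4ebp1, 0.58 ± 0.06 (adjusted p = 7.12e-19 and 6.82e-11), and the next initiation factors were Eif4b at 0.30 ± 0.02, Eif4ebp2 at -0.25 ± 0.04 and Eif2ak2 at 0.19 ± 0.06. For the synthetases they were Pars2 at 0.40 ± 0.06, Cars at -0.40 ± 0.03, Aars2 at -0.23 ± 0.03, Lars at -0.23 ± 0.03 and Rars2 at 0.21 ± 0.04. Every one of these passed the test of the difference.

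Calls were opposite in the 2 tissues for 8 of the 89 members, against 12.9% of the 12695 genes listed in both. Eif4ebp1, Eif4b, Eif5, Eif4a2 and Eif1ad fell in cortex and rose in liver, and Cars, Eprs and Aars2 rose in cortex and fell in liver. No initiation factor rose in cortex and fell in liver, and no synthetase fell in cortex and rose in liver. The share of all genes was not counted for each of these directions alone. In liver 7 initiation factor genes fell and 4 synthetase genes rose, whatever their call in cortex. The difference passed the test for all 8, and it had its own direction in 34 to 39 of 39 pools: 39 for Cars, 38 for Eif4b, 37 for Eif4ebp1 and Eif4a2, 36 for Eprs, 35 for Eif5 and Aars2, and 34 for Eif1ad. The liver changes of Eif5 and Eprs were small (0.04 and -0.05), and the Eprs fall in liver was -0.03 (adjusted p = 0.074) without BXD70, BXD90 and the DB F1. The Eif5 rise in liver did not pass without BXD70 and BXD90 (adjusted p = 0.0648), but passed with the DB F1 left out as well. Without the pairing of pools, the liver calls of Eif5 and Eprs were lost (adjusted p = 0.11 and 0.0577). The cortex rise of Cars was then lost too (adjusted p = 0.136). Same-direction calls in both tissues were made for 13 initiation factor genes (6 up, 7 down) and 15 synthetase genes (3 up, 12 down), against 15.3% up and 15.5% down in both tissues over all genes. Among them were falls of Lars, Mars, Vars, Gars, Iars2, Sars2 and Pars2.

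Levels of some members differed between lines far more than they moved with SD. Eif4a1 in cortex varied most, with an SD between Ctr pools of 0.41. In 24 pools its Ctr level lay between 4.82 and 5.21 log2 CPM, and in the other 15 between 5.45 and 6.06. The C57BL/6J pools were at 5.83 and 5.78, the DBA/2J pools at 5.03 and 4.97, and the F1 pools in between, at 5.46 and 5.58. The distance between the parental strains, 0.80, was larger than the change after SD in any single pool, and it was 0.88 in SD. In liver the SD between Ctr pools was 0.14 and the parental distance 0.17.

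Fars2, for mitochondrial phenylalanine, and Eif3m came next in cortex, with SDs of 0.31 and 0.27 and parental distances (C57BL/6J minus DBA/2J) of -0.68 and 0.50. Both F1 pools lay between the parental pools for Fars2 (3.80 and 3.78) and for Eif3m (3.91 and 3.76). The change of Fars2 did not pass in cortex (-0.04 ± 0.02, adjusted p = 0.0662), and that of Eif3m, -0.06 ± 0.02 (adjusted p = 0.0237), lost its call without BXD70 and BXD90 (-0.05, adjusted p = 0.0638). In liver the widest spreads were those of Eif5a2 (SD 0.70), Eif4e3 (0.49) and Eif4ebp3 (0.30). Eif5a2 had only 6.46 reads on average in liver, and Eif4e3 had 139. For Eif4e3 in liver, the changes in single pools ran from -1.05 to 0.76 around a mean of -0.0024. For Eif4g3 the parental order was opposite in the tissues, 0.45 in cortex and -0.63 in liver. Parental values are a description, since each strain had 2 pools.

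**Figure D5:**
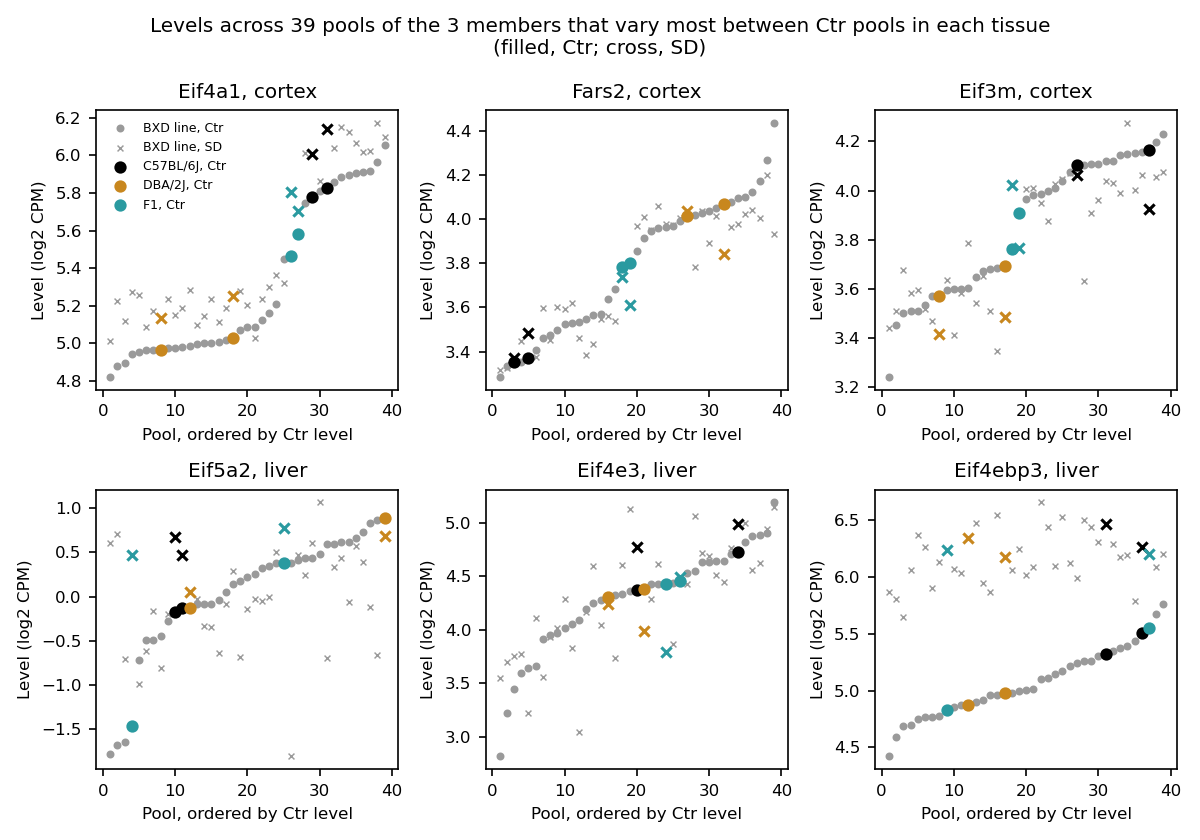
Level (log2 CPM, vertical axes) in each of 39 pools, ordered from the lowest to the highest Ctr level, for the 3 members with the widest spread between Ctr pools in cortex (top) and liver (bottom), with filled symbols for Ctr and crosses for SD. Eif4a1 steps up between 5.21 and 5.45 with the DBA/2J pools below and the C57BL/6J pools above the step, whereas in Eif4ebp3 the crosses lie above the filled symbols in every pool.

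Around these genes, the later steps of translation moved as follows. The counts here stand beside 36.6% up and 39.6% down over all genes in cortex, and 26% up and 27.9% down in liver. Of 15 elongation and termination genes, 8 rose and 3 fell in cortex, and of the 14 listed in liver 5 rose and 4 fell. Abce1, which splits ribosomes after termination, rose in cortex by 0.18 in all 39 pools and fell in liver by 0.08 (adjusted p = 0.00954; 27 of 39 pools). Eef2k, the kinase that inactivates elongation factor eEF2, fell in cortex by 0.31 in all 39 pools and in liver by 0.24 (adjusted p = 3e-20 and 2.68e-05). All 5 poly(A)-binding protein genes and partners rose in both tissues, with medians of 0.04 in cortex and 0.14 in liver, and Pabpc4 rose in liver in all 39 pools by 0.19. Of the 8 listed genes for synthetase scaffolds and relatives, 3 rose and 3 fell in cortex and 3 rose and 4 fell in liver, among them Eef1e1, a partner in the multi-synthetase complex, which rose by 0.22 in cortex and 0.21 in liver, and Pstk, the kinase that makes phosphoseryl-tRNA for selenocysteine, which fell by 0.37 and 0.19. Of 8 genes around Atf4 and the eIF2 alpha phosphatase, 4 rose and 2 fell in cortex and 3 rose and 1 fell in liver. Ppp1r15b, a phosphatase subunit that reverses the kinases, rose in cortex by 0.25, and Ddit3 (CHOP), a transcription factor downstream of ATF4, rose by 0.32 in cortex and 0.30 in liver.

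In the 4 BXD/TyJ pools, which were left out of the fits above, the mean change had the same sign as the call in 67 of the 70 members called in cortex and 42 of the 45 called in liver. The same shares over all called genes were 93.0% in cortex and 94.9% in liver, against 95.7% and 93.3% for the members. Eif4ebp1 changed by -0.68 and Eif4ebp2 by 0.51 in their cortex, and Eif4ebp3 by 1.14 in their liver, in the same direction in 4 of 4 pools each. Pars2 in cortex changed by -0.51 and Lars in liver by -0.58, again in 4 of 4. The BXD/TyJ pools that share a line number were counted as separate pools here.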

How the data were processed

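Libraries were stranded mRNA libraries of pooled RNA from cortex and liver. Per the study's methods and the labels, the authors mapped reads to mm9 with STAR, counted them per RefSeq gene with HTSeq (reverse strand, union mode), left out genes with a low mean count, scaled libraries with edgeR's TMM method and deposited log2 CPM values. The deposited log2 values stepped in whole reads in 100% of values (tolerance 0.02 reads). This gave each library's reads in the listed genes (4681101 to 28998853) and the counts for an added voom fit. Mean values near the floor, such as Eif5a2 in liver, rest on few reads.

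The main test was limma 3.58.1 in R 4.3.3 (lmFit with the pool as a block, eBayes with trend, two-sided, Benjamini-Hochberg over all genes of a tissue, threshold 0.05), and the tissue difference was tested on the within-pool difference of changes. Ctr and SD pools of a genotype were paired by the genotype in the labels. Their deviations from the group means correlated with a median of 0.61 in cortex and 0.48 in liver (lowest pair 0.30 and 0.17), against -0.02 for other pairs. The script was tested on simulated data. Coordinates of genes are mm9 (Gencode vM1). Promoters are from RefSeq, GRCm38.p6, and the 2 builds were not mixed. Levels per kilobase used the union of Gencode exons. Tables were made with Python 3.11.15 and pandas 2.3.3.

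Members, role lists and pathway lists were chosen with earlier results of these data known. Genes named with values were, per tissue and group, the 5 largest rises and falls among called members that moved alike in at least 30 of 39 pools, the kinases, eIF4E, eIF4A and eIF4G genes and eIF4E-binding proteins, members called in opposite directions, and the 3 members a tissue that varied most between Ctr pools. Values of 1 member, which is included in the counts and medians, are not reported here. The remaining members and pathway genes with values were chosen after their values were seen. Alternatives were the fit without the block, eBayes without trend, median-centred libraries, a filter that kept genes averaging 0 log2 CPM or more, log2(CPM + 1), all 43 pools, the 33 BXD/RwwJ lines, averaged parental pools, no BXD79, BXD85 and BXD101, voom, and, chosen after seeing the data, no BXD70 and BXD90, and neither these nor the DB F1.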

Additional observations from a re-analysis of the deposited data

Results flagged for a closer look

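The change after SD differed between liver and cortex for 31 initiation factor genes and 26 synthetase genes by the paired limma test of the within-pool difference, against 57.6% of the 12695 genes listed in both tissues. Liver minus cortex, the difference was 1.15 ± 0.07 (SE) for Eif4ebp3, 0.58 ± 0.06 for Eif4ebp1, 0.30 ± 0.02 for Eif4b, 0.19 ± 0.06 for Eif2ak2, 0.19 ± 0.02 for Eif5, 0.18 ± 0.03 for Eif1ad and 0.17 ± 0.02 for Eif4a2. It was -0.25 ± 0.04 for Eif4ebp2. Among synthetases it was 0.40 ± 0.06 for Pars2, 0.21 ± 0.04 for Rars2, -0.40 ± 0.03 for Cars, -0.23 ± 0.03 for Aars2, -0.23 ± 0.03 for Lars and -0.19 ± 0.02 for Eprs. Cars had a lower change in liver than in cortex in 39 of 39 pools and Eif4ebp3 a higher one in 39 of 39. Liver libraries held fewer reads in the listed genes than cortex libraries, and the part of this in the differences was not tested.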

How the results depend on the processing

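Of the 10 counts of members, only 1 moved by more than 1.5 times under any of the 12 alternatives. That was the number of initiation factor genes that rose in liver, 16 with the pairing of Ctr and SD pools and 10 with no replicate block. In the fit without the block, cortex counts were 19 up and 16 down for initiation factors and 11 up and 15 down for synthetases, liver counts 5 down for initiation factors and 4 up and 16 down for synthetases, and 24 and 22 members differed between tissues. Of the members called, 9 in cortex and 10 in liver then no longer passed, among them Cars (adjusted p = 0.136), Eif3m (0.377), Eif4a1 (0.0753), Eif4g3 (0.164), Eif4h (0.165), Eif5a (0.066), Eif5a2 (0.0853), Farsa (0.0866) and Rars (0.15) in cortex and Eif1 (0.145), Eif2ak4 (0.075), Eif2s1 (0.107), Eif3h (0.162), Eif4g3 (0.306), Eif5 (0.11), Eif5b (0.125) and Eprs (0.0577) in liver. The pairs share a genotype, and no such fit was used for a call. No called member changed sign under any alternative. Of the values of named genes under alternatives, 1022 kept their side of the threshold, 22 lost it and 12 gained it. In liver the calls of Eif5, Eprs, Eif2s1, Eif5b, Eif3h and Eif1 were also lost under 1 or more of median centring (Eif3h, adjusted p = 0.0557), leaving out pools or averaging parents. With BXD70, BXD90 and the DB F1 all left out, Eif2s1, Eif3h, Eif1 and Eif5 passed. Median centring moved all changes by -0.004 in cortex and 0.006 in liver, and voom on the recovered reads gave 21 up and 20 down (cortex initiation factors), 14 and 16 (cortex synthetases), 16 and 7 and 5 and 18 (liver). The voom fit was not run for the tissue difference. Depth limits the low members in liver, Eif5a2, Mars2 and Pars2, and each pool was sequenced once.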
